A study of Mus musculus with 17 samples.

Results

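Iron enters a cell on transferrin or as free metal, is held in ferritin, is released again when ferritin is degraded, and leaves through an exporter. The 10 genes described here carry out these steps: Tfrc, Steap3, Slc11a2 and Slc11a1 in uptake, Fth1, Ftl1 and Ncoa4 in storage and release, Slc40a1 and Hmox1 in export and heme breakdown, and Ireb2 in sensing. The members were a list of gene names, looked up in the 3 expression tables of the study by gene name, and the rule itself used no measured value. All 10 were found among 16410 genes of the tumor cell table and 13545 genes of the table of TRMs, and 9 of 10 among 13407 genes of the table of MDMs. Steap3 was not analysed in MDMs.

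The study asked how loss of Gpx4, a peroxidase that removes lipid peroxides and protects cells from the iron-dependent death called ferroptosis, changes lung tumors and the cells around them. KL mice had the genotype KrasLSL-G12D/+Lkb1fl/fl, and KLG4 mice had in addition the allele Gpx4m/m, from which rox-flanked exons are removed by DreERT2, a tamoxifen-activated recombinase that Cre switches on. Both genotypes were on a C57BL/6 background, were infected as young adults with Ad-Cre through the nose and were then given tamoxifen, and their cells were sorted from the tumors 10 weeks after Ad-Cre. Tumor cells, TRMs and MDMs (tissue-resident and monocyte-derived macrophages) were each represented by 2 libraries per genotype, made by bulk sequencing of poly(A) mRNA. Deletion is designed for the tumor cells, and none is designed for the macrophages. Tumor cells were sorted as CD45-, CD31- and EpCAM+ cells.

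Cells sense iron through iron regulatory proteins, of which Ireb2 encodes one and Aco1 the other. When iron is scarce these proteins bind a hairpin in certain mRNAs, the iron-responsive element. Bound near the start of an mRNA the protein blocks translation, and bound near its end it protects the mRNA from decay. The amount of ferritin protein can therefore change while its mRNA does not. Lung macrophages take up and recycle iron from dying cells and red cells.

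The elements themselves are shown because they mark the members whose mRNA these proteins can bind. They were sought in GENCODE M21 protein-coding transcripts (GRCm38) as the letters CNNNNNCAGTGN followed by at least 5 bases, on the transcribed strand, with all 5 bases after the first C able to pair with the 5 bases after the loop (G with T allowed). The letters alone were in at least 1 transcript of 67.2% of 21901 protein-coding genes. With the pairing, 0.142% of genes held a match in a 5′ UTR and 0.589% in a 3′ UTR. The members with such a match were Fth1, Ftl1 and Slc40a1 in the 5′ UTR and Tfrc, with 4 of them, in the 3′ UTR. Each is printed 5′ to 3′ with the CAGTGN loop in capitals.
Fth1 5′ UTR, chr19:9982732-9982760, plus strand: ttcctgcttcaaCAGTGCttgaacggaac
Ftl1 5′ UTR, chr7:45459779-45459807, minus strand: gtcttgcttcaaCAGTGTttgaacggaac
Slc40a1 5′ UTR, chr1:45925465-45925493, minus strand: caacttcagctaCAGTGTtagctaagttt
Tfrc 3′ UTR, chr16:32631219-32631247, plus strand: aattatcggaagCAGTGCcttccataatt
Tfrc 3′ UTR, chr16:32631598-32631626, plus strand: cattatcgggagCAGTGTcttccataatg
Tfrc 3′ UTR, chr16:32631663-32631691, plus strand: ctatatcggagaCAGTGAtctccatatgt
Tfrc 3′ UTR, chr16:32631710-32631738, plus strand: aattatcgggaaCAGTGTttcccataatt
Slc11a2 3′ UTR of transcript Slc11a2-205, chr15:100395153-100395181, minus strand: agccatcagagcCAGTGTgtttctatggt

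The Slc11a2 stretch paired at 4 of 5 positions and is the best match of that gene. It belongs to the long 3′ end of Slc11a2-205 and is not part of Slc11a2-201, and the deposited values, counted per gene, do not tell the 2 ends apart. Hmox1, Slc11a1, Ncoa4, Ireb2 and Steap3 held no match with all 5 pairs, which says only that these letters were not found.

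Several facts about the libraries bear on the values. Counted reads, recovered from the deposited RPKM (reads per kilobase of exon at a common sequencing depth), ranged from 9140750 to 36617000 per library. Gpx4, the targeted gene, was at 94.95 and 76.8 RPKM (KL) against 56.4 and 61.9 RPKM (KLG4) in tumor cells, counted over all exons. In TRMs, where no deletion is designed, it was at 89.8 and 88.2 RPKM (KL) against 53.8 and 57.0 RPKM (KLG4), and in MDMs, likewise, at 44.9 and 71.3 RPKM (KL) against 93.6 and 97.7 RPKM (KLG4), so that the KLG4 libraries were lower in TRMs and higher in MDMs. Stk11, the symbol of Lkb1, was at 25.9 and 25.8 RPKM (KL) against 61.6 and 61.6 RPKM (KLG4) in tumor cells, 21.5 and 23.3 RPKM against 42.5 and 40.005 RPKM in TRMs, and 62.3 and 72.6 RPKM against 203 and 177 RPKM in MDMs, so it was higher in KLG4 in all 3. Xist was at 0.257 and 0.501 RPKM in the KL TRMs and 18.3 and 20.2 RPKM in the KLG4 TRMs, so sex and genotype cannot be told apart in TRMs. The MDM libraries held 21.8 and 0.839 RPKM of Xist (KL) against 19.4 and 19.4 RPKM (KLG4). Tumor cells held 6.18 and 4.55 RPKM of Xist (KL) against 4.38 and 4.17 RPKM (KLG4). They also held the Y-linked gene Eif2s3y, at 7.27 and 9.26 RPKM (KL) against 7.52 and 8.15 RPKM (KLG4). In TRMs Eif2s3y was at 12.3 and 14.7 RPKM (KL) against 0 and 0 RPKM (KLG4). Each tumor cell library thus held both genes, and whether each came from a single mouse was not tested. The share of counted reads on mitochondrial genes was 4.21% and 5.12% in KL against 8.95% and 8.88% in KLG4 tumor cells, 13.2% and 9.18% against 1.43% and 2.402% in TRMs, and 1.35% and 3.36% against 0.494% and 0.661% in MDMs. It thus moved with genotype in every population, and its part in the results was not tested beyond the rescaling given below. The tables were normalized separately, so levels are set side by side across populations as a description, and genotypes were tested within a population.

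The labelled cell types were checked against marker lists of 10 genes. All 10 epithelial markers were present in the tumor cell libraries, with summed levels of 8737 and 6508 RPKM in KL and 3776 and 3792 RPKM in KLG4. The 10 markers of AT2 cells (type 2 cells of the alveolus) summed to 3639 and 4099 RPKM in KL and 1260.4 and 1277 RPKM in KLG4, and all 10 of each list were lower in KLG4. All 10 leukocyte markers were higher in both KLG4 tumor cell libraries than in both KL ones, with sums of 249 and 256 RPKM against 24.5 and 33.4 RPKM. Ptprc, which encodes CD45, the antigen that the sort excluded, was at 26.7 and 27.4 RPKM (KLG4) against 0.834 and 2.06 RPKM (KL). The neutrophil list stood at 2773 and 2697 RPKM (KLG4) against 630 and 600.1 RPKM (KL). Of the other lists, monocyte-derived macrophage markers summed to 647 and 656 RPKM (KLG4) against 53.8 and 63.6 RPKM (KL), with 9 of 9 analysed genes higher. Fibroblast markers summed to 589 and 595 RPKM against 204 and 232 RPKM, with 9 of 10 higher, and T cell markers to 79.4 and 86.3 RPKM against 2.90 and 4.48 RPKM, with 10 of 10 higher. In TRMs the alveolar macrophage list summed to between 8786 and 13348 RPKM, above every other marker list. In MDMs the neutrophil list summed to between 10745 and 23751 RPKM, and the list for monocyte-derived macrophages to between 1201 and 2875 RPKM, so the markers do not single out macrophages in these libraries. MDM KL replicate 2 stood apart, with C1qa at 92.7 RPKM against 15.96 to 24.4 RPKM in the other 3. Erythroid markers were low, with 3 of 10 analysed in TRMs and MDMs and sums of 2.65 to 8.85 RPKM. Bulk RNA does not tell a smaller number of cells of a type from less RNA per cell.

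**Figure D1:**
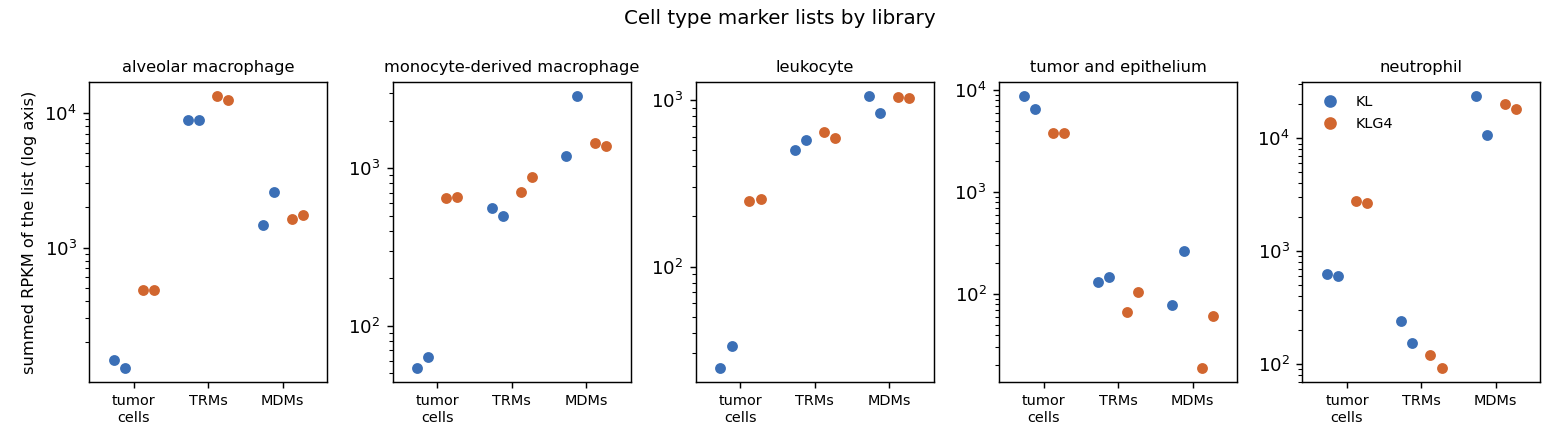
Summed RPKM of 5 marker lists (log axis) in each of the 12 libraries, KL in blue and KLG4 in orange. In tumor cells the leukocyte list stood at 249 and 256 RPKM (KLG4) against 24.5 and 33.4 RPKM (KL), and in MDMs the neutrophil list reached 10745 to 23751 RPKM.

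In tumor cells the ferritin heavy chain and the phagosomal iron transporter rose in KLG4 and the transferrin receptor fell. Fth1 was 2.45-fold higher, Slc11a1 18.3-fold higher (10.5-fold with a pseudocount of 1 in place of 0.1), Ncoa4 1.46-fold higher and Tfrc 0.579 times the KL level. Of 8 members tested, 4 were called at an adjusted p under 0.05 in limma (Benjamini-Hochberg over the table), with 3 higher and 1 lower, against 40.3% of all 13770 genes tested (20.6% higher and 19.6% lower). An unadjusted p under 0.05 was found for 7 of 8, against 50.4% of all genes, and 5 of 8 had such a p and were higher, against 23.6%. The KLG4 pair lay wholly above the KL pair for 6 of 8, against 32.5% of all genes, and wholly below for 2, against 42.2%. With 8 members these shares are too coarse to set the list apart. Slc40a1 and Steap3 did not reach 1 RPKM in 2 libraries and were not tested. Slc11a1 reached 1 RPKM in 1 of 2 KL libraries, so it was tested through the KLG4 pair. With no filter on low values 6 of 10 members were called, the same 4 with Slc40a1 and Steap3, against 38.7% of all genes. Fold changes were computed as KLG4 minus KL on log2(RPKM + 0.1), with n = 2 libraries per genotype.

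**Figure D2:**
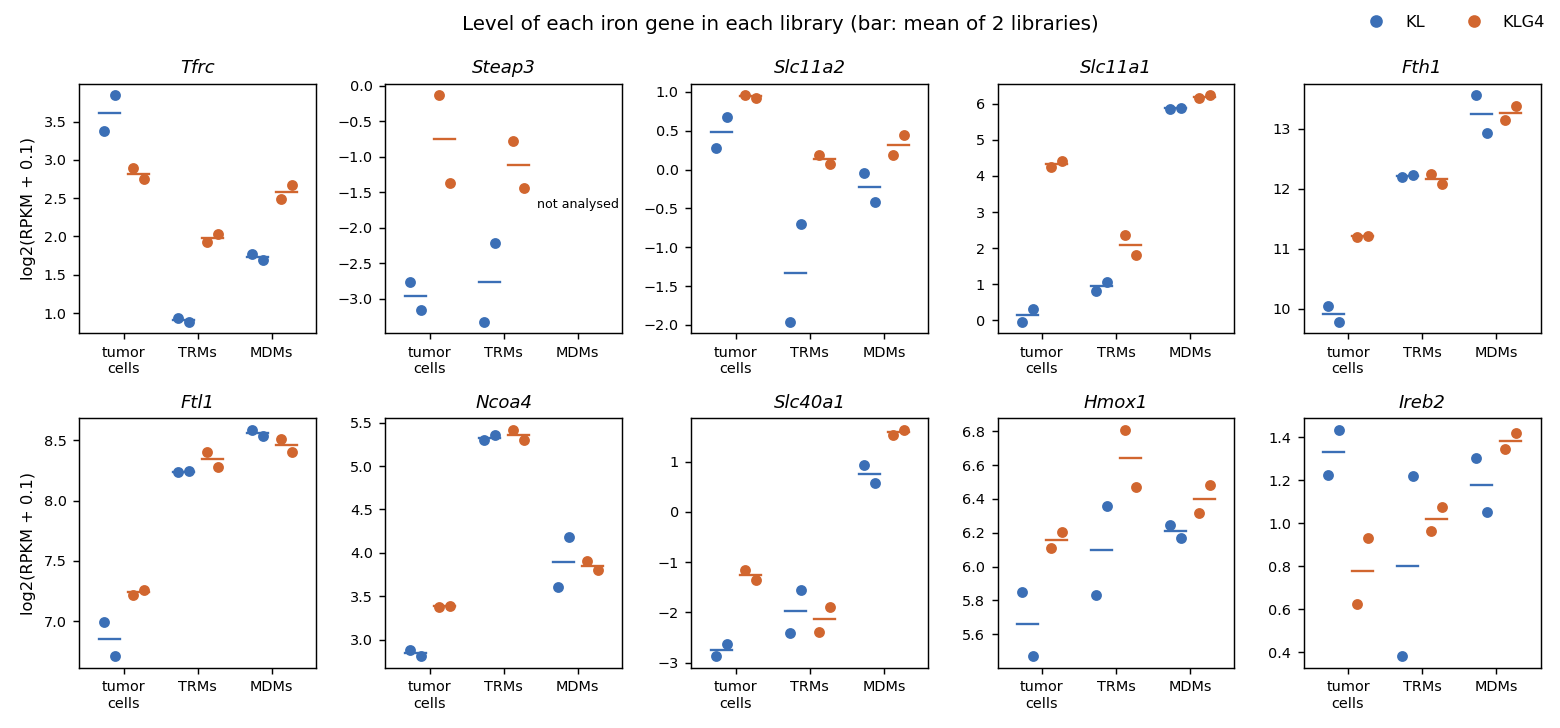
Levels of the 10 members as log2(RPKM + 0.1) in each library, KL in blue and KLG4 in orange, with bars at the mean of 2 libraries. Slc11a1 lies near 1 RPKM in KL tumor cells and at 18.9 and 21.4 RPKM in KLG4 tumor cells, and Tfrc lies lower in KLG4 than in KL in tumor cells and higher in both macrophage populations.

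Transferrin-bound iron is taken up by Tfrc (chr16:32608920-32632794, plus strand), the transferrin receptor, whose elements are printed above. In tumor cells Tfrc was at 10.2 and 14.3 RPKM (KL) against 7.30 and 6.63 RPKM (KLG4). Both KLG4 values fell short of both KL values. Its log2 fold change was -0.79 ± 0.20 (SE), and the limma adjusted p was 0.0282. The epithelial and AT2 lists were lower in the same KLG4 libraries, and their part in the fall was not tested. In TRMs Tfrc was at 1.81 and 1.75 RPKM (KL) against 3.70 and 3.99 RPKM (KLG4). In MDMs it was at 3.30 and 3.13 RPKM (KL) against 5.53 and 6.25 RPKM (KLG4). In both macrophage populations the KLG4 libraries were thus the higher ones. The log2 fold changes there were 1.07 (adjusted p 0.0881) and 0.85 (adjusted p 0.679) in limma, and neither passed. Over the 6 groups Tfrc was highest in KL tumor cells at 12.3 ± 2.86 RPKM (SD, n = 2) and lowest in KL TRMs at 1.78 ± 0.0424 RPKM, and no neighbours in that order overlapped.

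Iron released in the endosome is reduced by Steap3 (chr1:120190757-120272705, minus strand), a ferrireductase. Steap3 was at 0.0478 and 0.0116 RPKM in KL tumor cells, from 10 and 2 reads. In KLG4 tumor cells it was at 0.813 and 0.286 RPKM, from 82 and 26 reads. In TRMs it had 0 and 6 reads in KL and 74 and 18 reads in KLG4, where a count of 0 allows up to 3 fragments, or 0.105 RPKM if both mates of each were counted, in the library with none. The KLG4 libraries held more Steap3 reads than the KL libraries in both populations. Steap3 was below the filter in both. In the fit without that filter the limma adjusted p was 0.0122 in tumor cells and 0.171 in TRMs. The leukocyte, neutrophil, monocyte-derived macrophage and fibroblast lists were higher in the same KLG4 tumor cell libraries, and their part in the Steap3 values was not tested.

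Reduced iron leaves the endosome through Slc11a2 (chr15:100387898-100425072, minus strand), a divalent metal transporter. Slc11a2 was low in every group, at 1.11 and 1.499 RPKM (KL) against 1.85 and 1.80 RPKM (KLG4) in tumor cells. Its log2 fold change in tumor cells was 0.47 ± 0.23 (SE), and the limma adjusted p was 0.163. In TRMs it was at 0.157 and 0.517 RPKM (KL) against 1.04 and 0.950 RPKM (KLG4) and was not tested. Among MDMs it stood at 0.873 and 0.652 RPKM (KL) against 1.04 and 1.26 RPKM (KLG4) (log2 fold change 0.54, limma adjusted p 0.691). In all 3 populations both KLG4 values exceeded both KL values, and no test passed. In MDMs Slc11a2 met the filter of 1 RPKM through the KLG4 pair alone, so its order there follows from the filter.

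Slc11a1 (chr1:74375195-74386062, plus strand) is the related transporter of the phagosome membrane, made by macrophages and neutrophils. In tumor cells it was at 0.877 and 1.14 RPKM (KL) against 18.9 and 21.4 RPKM (KLG4). The log2 fold change of 4.196 ± 0.19 (SE) had a limma adjusted p of 1.9e-04. The leukocyte, neutrophil and monocyte-derived macrophage lists were higher in the same KLG4 libraries, as given above, and their part in this rise was not tested. Levels in MDMs were 57.9 and 58.8 RPKM in KL and 70.4 and 75.3 RPKM in KLG4 (log2 fold change 0.32, limma adjusted p 0.679). In TRMs Slc11a1 was at 1.65 and 2.01 RPKM (KL) against 5.02 and 3.42 RPKM (KLG4) (log2 fold change 1.15, limma adjusted p 0.0987). The KLG4 tumor cells thus stood between the TRMs and the MDMs. The 6 groups did not overlap with their neighbours in order, and Slc11a1 had the widest range of the members, 6.04 on the log2 scale.

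Within a library, the ratio of Slc11a1 to Slc11a2 does not depend on how the library was scaled. In tumor cells the ratio of RPKM was 0.788 and 0.762 in KL and 10.2 and 11.9 in KLG4. In TRMs it was 10.5 and 3.89 in KL and 4.83 and 3.599 in KLG4, where KL replicate 1 had 10 reads of Slc11a2. In MDMs it lay between 59.6 and 90.2. The genotypes were apart in tumor cells and overlapped in TRMs and MDMs. The marker lists that were higher in the same KLG4 tumor cell libraries were not tested for their part in this ratio.

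Iron is stored in ferritin, a shell of heavy and light chains. Fth1 (chr19:9982703-9985092, plus strand) encodes the heavy chain, which oxidizes iron for storage. In tumor cells Fth1 was at 1061 and 881 RPKM (KL) against 2354 and 2386 RPKM (KLG4). Its log2 fold change was 1.29 ± 0.15 (SE), and the limma adjusted p was 0.00204. The KLG4 libraries were the higher ones by more than the spread within either genotype. The leukocyte, monocyte-derived macrophage and fibroblast lists were higher in the same libraries, and their part in the difference was not tested. In TRMs Fth1 was at 4728 and 4836 RPKM (KL) against 4874 and 4323 RPKM (KLG4). In MDMs it was at 12142 and 7801 RPKM (KL) against 9038 and 10729 RPKM (KLG4). In both macrophage populations the genotypes overlapped. Fth1 was the 2nd to 4th highest gene by RPKM in the MDM libraries, the 8th to 18th in TRMs, the 53rd and 58th in KL tumor cells and the 22nd and 23rd in KLG4 tumor cells.

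Ftl1 (chr7:45457944-45459884, minus strand) encodes the light chain, which helps to form the iron core. In tumor cells it was at 127 and 105 RPKM (KL) against 149 and 153 RPKM (KLG4). Both KLG4 values exceeded both KL values, but the log2 fold change of 0.39 ± 0.14 (SE) did not pass, and the limma adjusted p was 0.0722. It passed in 4 of 14 alternatives: quantile scaling, rescaling to reads outside mitochondrial genes, and without either KL library. In TRMs Ftl1 was at 301 and 302 RPKM (KL) against 339 and 310 RPKM (KLG4). Among MDMs it stood at 384 and 371 RPKM (KL) against 365 and 339 RPKM (KLG4). TRMs gave a log2 fold change of 0.10 (limma adjusted p 0.665) and MDMs one of -0.10 (limma adjusted p 0.843), and the sign in TRMs turned under quantile scaling, median ratio scaling and rescaling to reads outside mitochondrial genes.

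The light to heavy chain ratio, taken within a library, was lower in KLG4 tumor cells and slightly higher in KLG4 TRMs. The ratio of Ftl1 to Fth1 in RPKM was 0.120 and 0.119 in KL tumor cells and 0.0632 and 0.0643 in KLG4 tumor cells. In TRMs it was 0.0637 and 0.0625 in KL and 0.0695 and 0.0718 in KLG4. In MDMs it was 0.0316 and 0.0476 in KL and 0.0403 and 0.0316 in KLG4. The genotypes lay apart in tumor cells and, in the opposite direction, in TRMs, and overlapped in MDMs. KL tumor cells had the highest and MDMs the lowest ratio. A ratio within a library removes scaling but not a change in the mix of cells. Marker lists moved with genotype in the tumor cell and TRM libraries, and their part in the ratio was not tested. A two-sided exact permutation test of the log ratio gave p = 0.333 in tumor cells and in TRMs, the smallest that 2 libraries against 2 allow.

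**Figure D3:**
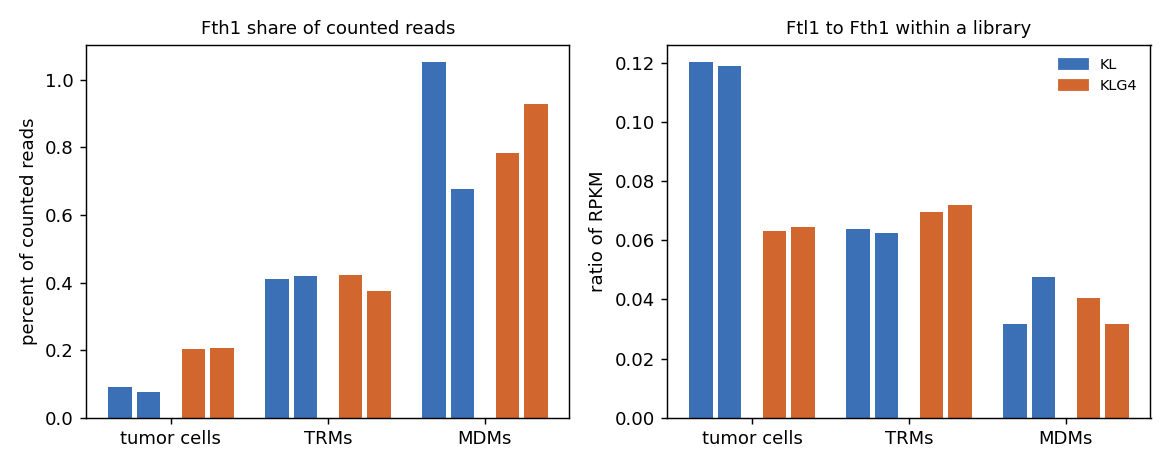
Left, the share of counted reads taken by Fth1, in percent; right, the ratio of Ftl1 to Fth1 in RPKM; each bar is 1 library, KL in blue and KLG4 in orange. In tumor cells the Fth1 share was 0.0919% and 0.0763% in KL and 0.204% and 0.207% in KLG4, and the ratio was 0.120 and 0.119 against 0.0632 and 0.0643.

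Both ferritin genes have processed copies elsewhere in the genome, and reads that matched several places were not counted. The copies that were analysed were far lower than their parents. Ftl1-ps1 was at 2.73 to 5.16 RPKM in tumor cells, 7.16 to 16.1 RPKM in TRMs and 10.2 to 18.1 RPKM in MDMs. Ftl2-ps was at 2.50 to 7.53 RPKM in TRMs and 2.44 to 4.002 RPKM in MDMs. Fth-ps2 and Fth-ps3, analysed in MDMs alone, were at 0.560 to 3.34 RPKM and 0 to 3.22 RPKM. None of these copies passed an adjusted p of 0.05 in limma, and the levels of Fth1 and Ftl1 are uncertain by the reads that the counting left out.

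Ncoa4 (chr14:32159865-32179855, plus strand) is the receptor that carries ferritin to the lysosome for degradation, which frees its iron. In tumor cells it was at 7.26 and 6.90 RPKM (KL) against 10.3 and 10.4 RPKM (KLG4). The log2 fold change of 0.54 ± 0.13 (SE) had a limma adjusted p of 0.0266. The part of the marker lists that moved in the same libraries was not tested. TRMs held the most Ncoa4, at 39.3 and 40.8 RPKM (KL) against 42.7 and 39.2 RPKM (KLG4). MDMs were at 12.1 and 18.1 RPKM (KL) against 14.9 and 13.8 RPKM (KLG4). In neither macrophage population did the genotypes separate, with log2 fold changes of 0.03 (adjusted p 0.917) and -0.04 (adjusted p 0.966) in limma. Ncoa4 and Fth1 did not share an order of populations, since TRMs exceeded MDMs in Ncoa4 and MDMs exceeded TRMs in Fth1.

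Slc40a1 (chr1:45908068-45926523, minus strand) encodes ferroportin, the iron exporter. Among MDMs it stood at 1.81 and 1.39 RPKM (KL) against 2.80 and 3.001 RPKM (KLG4). Both KLG4 libraries were the higher ones, and the log2 fold change of 0.83 ± 0.29 (SE) did not pass (limma p 0.0382, adjusted p 0.679). In tumor cells Slc40a1 was at 0.0364 and 0.0625 RPKM in KL, from 12 and 17 reads, and 0.346 and 0.293 RPKM in KLG4, from 55 and 42 reads. In TRMs it was at 0.0889 and 0.243 RPKM (KL) against 0.0913 and 0.170 RPKM (KLG4). Below 1 RPKM in all of these libraries, it was not tested in tumor cells or TRMs. In the fit with no filter the limma adjusted p was 0.00561 in tumor cells and 0.878 in TRMs. The leukocyte and monocyte-derived macrophage lists were higher in the same KLG4 tumor cell libraries, and their part in the Slc40a1 values was not tested.

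Hmox1 (chr8:75093621-75100589, plus strand) encodes heme oxygenase, which opens the heme ring and frees its iron. In tumor cells it was at 57.5 and 44.2 RPKM (KL) against 69.0 and 73.5 RPKM (KLG4). Both KLG4 values exceeded both KL values, and the log2 fold change of 0.50 ± 0.16 (SE) missed the threshold with a limma adjusted p of 0.0555. It passed in 6 of 14 alternatives, the 4 named for Ftl1, a pseudocount of 1 and limma-voom. In TRMs Hmox1 was at 56.9 and 81.9 RPKM (KL) against 112 and 88.8 RPKM (KLG4). In MDMs it was at 75.9 and 71.9 RPKM (KL) against 79.6 and 89.4 RPKM (KLG4). TRMs gave a log2 fold change of 0.55 (limma adjusted p 0.191) and MDMs one of 0.19 (limma adjusted p 0.740), with the KLG4 libraries the higher ones each time. Hmox1 was the most even of the abundant members, with a range of 0.980 on the log2 scale over the 6 groups, of which only the second and the third in order did not overlap.

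Set against the exporter, Hmox1 exceeded Slc40a1 everywhere, by a ratio that followed Slc40a1. The ratio of Hmox1 to Slc40a1 in RPKM was 41.9 and 51.7 in KL MDMs and 28.5 and 29.8 in KLG4 MDMs. It was 1579 and 708 in KL tumor cells and 199 and 251 in KLG4 tumor cells. In TRMs it lay between 337 and 1227 with the genotypes overlapping. The tumor cell and TRM ratios rest on 8 to 55 reads of Slc40a1, and the part of the marker lists in them was not tested.

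Ireb2 (chr9:54863789-54912530, plus strand) encodes the iron regulatory protein that is degraded when iron is plentiful, so its mRNA is only part of its control. In tumor cells it was at 2.24 and 2.602 RPKM (KL) against 1.44 and 1.81 RPKM (KLG4). Both KLG4 values fell short of both KL values, and the log2 fold change of -0.55 ± 0.22 (SE) had a limma adjusted p of 0.0970. In TRMs Ireb2 was at 1.203 and 2.23 RPKM (KL) against 1.85 and 2.01 RPKM (KLG4), where the genotypes overlapped. Among MDMs it stood at 2.37 and 1.97 RPKM (KL) against 2.44 and 2.57 RPKM (KLG4) (log2 fold change 0.20, limma adjusted p 0.795). Its range over the 6 groups was the smallest of the members, 0.596 on the log2 scale, and every pair of neighbours in order overlapped.

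**Figure D4:**
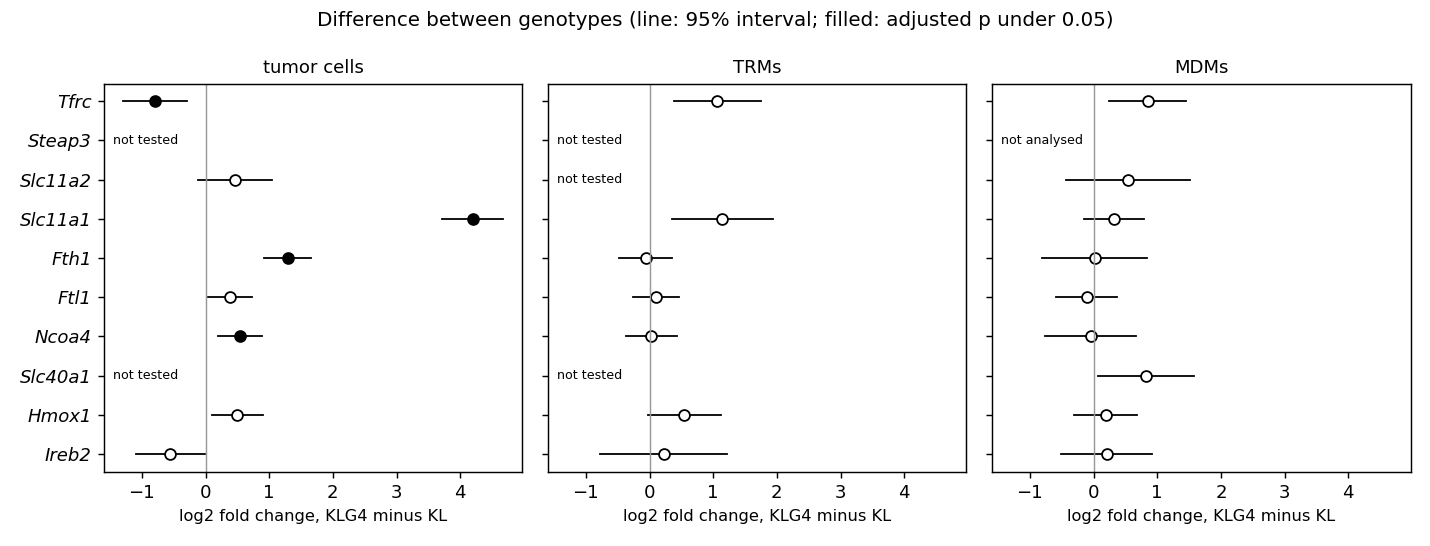
Log2 fold change (KLG4 minus KL) of each member with its 95% confidence interval in the 3 populations; filled points passed an adjusted p of 0.05. The 4 filled points are Tfrc, Slc11a1, Fth1 and Ncoa4 in tumor cells, with Tfrc at -0.79 and Slc11a1 at 4.196.

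In the macrophages no member passed. Among TRMs 0 of 7 members tested were called, against 1.8% of 10990 genes (1.36% higher and 0.437% lower). An unadjusted p under 0.05 was found for Tfrc and Slc11a1, both higher, against 28.3% of all genes and 25.5% in that direction. The median log2 fold change of all genes in TRMs was 0.38, so the values of Tfrc (1.07), Slc11a1 (1.15) and Hmox1 (0.55) lay above that shift and those of Fth1 (-0.06), Ftl1 (0.10), Ncoa4 (0.03) and Ireb2 (0.22) below it. Among MDMs 0 of 9 members were called, against 0% of 10475 genes. An unadjusted p under 0.05 was found for Tfrc and Slc40a1, both higher, against 6.74% of all genes and 2.82% in that direction. Both KLG4 values exceeded both KL values for 6 of 9 members in MDMs and 4 of 7 members tested in TRMs, against 25.4% and 53.7% of all genes. In MDMs 1 of the 6 was Slc11a2, whose order follows from the filter. They fell wholly below for 1 of 9 members in MDMs and 0 of 7 in TRMs, against 19.1% and 8.95%. With limma-voom on the recovered reads, 2 of 7 members passed in TRMs, against 18.2% of all genes, and 0 of 9 in MDMs, against 0%. Without MDM KL replicate 1, Tfrc (0.89, adjusted p 0.0408) and Slc40a1 (1.01, adjusted p 0.0440) passed in limma, with the lone KL library assumed to vary like the KLG4 group. In that fit 25.6% of all genes were called, and the KL library left is the one with the high C1qa and the low Xist.

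The tumor cell calls rest on a KLG4 pair that was very close. Without KLG4 replicate 1 or without KLG4 replicate 2, 1 of 8 members passed, Slc11a1, against 14.5% or 14% of all genes, and the adjusted p of Fth1 was 0.0878 or 0.0929 in limma with log2 fold changes of 1.303 and 1.28. The log2 fold changes of Tfrc were then -0.86 and -0.72 and those of Ncoa4 0.55 and 0.54, close to the values with all 4 libraries. Quantile scaling called 7 of 8, against 48.9% of all genes, and rescaling to reads outside mitochondrial genes called 6 of 8, against 37.8%. No alternative turned the direction of a member in tumor cells.

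Other genes of iron handling were taken from 7 lists of 76 genes. In tumor cells 66 were analysed and 56 tested, of which 21 were called (37.5%), 12 higher and 9 lower in KLG4, close to the 40.3% of all genes. The median log2 fold change was -0.04 over the lists and -0.09 over all genes. The leukocyte, monocyte-derived macrophage, neutrophil, fibroblast and T cell lists were higher and the epithelial list lower in the same KLG4 libraries, and their part in these calls was not tested.

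Of the sensing genes, 6 of 7 tested were called in tumor cells, 3 in each direction, against 40.3% of all genes, a share as coarse as that of the members. Aco1, the other iron regulatory protein and an aconitase, fell from 9.34 and 13.8 RPKM (KL) to 5.72 and 6.13 RPKM (KLG4) (log2 fold change -0.93 ± 0.22 SE, adjusted p 0.0225 in limma). Nfe2l2, a transcription factor that induces ferritin and Hmox1, fell by 0.57 on the log2 scale, from 92.3 and 96.5 RPKM to 63.7 and 63.1 RPKM. Its inhibitor Keap1 fell by 0.60. Bach1, a repressor of the same genes that heme inactivates, rose by 0.86, from 5.21 and 7.11 RPKM to 10.5 and 11.8 RPKM. The hypoxia factors Epas1 and Hif1a rose by 0.65 and 0.46. Fbxl5, which marks Ireb2 for degradation, had a log2 fold change of 0.17 that did not pass.

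Among transferrin and ferrireductase genes, 4 of 6 tested were called in tumor cells, against 40.3% of all genes. Steap4, a ferrireductase, rose from 3.15 and 3.53 RPKM (KL) to 19.3 and 20.9 RPKM (KLG4) (log2 fold change 2.55 ± 0.15 SE, adjusted p 3.3e-04 in limma). Lcn2, a secreted protein that binds bacterial iron carriers, rose by 0.73. The metal transporter Slc39a8 fell by 0.80 and Snx3, which recycles the transferrin receptor, fell by 0.69. Steap4 was at 20.5 to 35.9 RPKM in MDMs and 0.568 to 1.39 RPKM in TRMs.

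In the list of heme uptake, breakdown and export, 4 of 8 genes were called in tumor cells, against 40.3% of all genes. Lrp1, a receptor for heme-hemopexin among many ligands, rose from 0.538 and 0.847 RPKM to 6.65 and 6.43 RPKM (log2 fold change 3.09 ± 0.25 SE, adjusted p 7.5e-04 in limma). Both KL libraries lay below the filter of 1 RPKM, so Lrp1 was tested only through the KLG4 pair in which it was high. Blvra, which reduces the biliverdin that Hmox1 makes, rose by 0.57, whereas Hmox2, the constitutive heme oxygenase, fell by 0.50. The last, Pgrmc1, rose by 0.39. Blvra did not pass in limma under quantile scaling (adjusted p 0.0615) or with the replicate block (adjusted p 0.0593). Hmox2 did not pass under median ratio scaling (limma adjusted p 0.0759) or without the trend (limma adjusted p 0.0543). In the list of export and the hepcidin axis 2 of 7 were called, against the same 40.3%: the ferroxidase Cp rose by 1.23, from 9.12 and 17.1 RPKM to 28.9 and 29.9 RPKM, and Hfe, a regulator of hepcidin, which reached 1 RPKM in 1 of 2 KL libraries, rose by 1.41.

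Of 15 tested genes of mitochondrial iron and iron-sulfur clusters, 3 were called, against 40.3% of all genes, with Glrx5 (-0.73) and Nfu1 (-0.67) lower and Isca1 (0.74) higher. All 3 take part in making or passing on clusters. Of 8 heme synthesis genes, Alas1, the first enzyme, rose by 0.54 and was the only call. Of 5 tested iron chaperone and ferritin handling genes, Pcbp1, which delivers iron to ferritin, was the only call and fell by 0.59, from 69.1 and 68.0 RPKM to 46.7 and 44.1 RPKM.

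**Figure D5:**
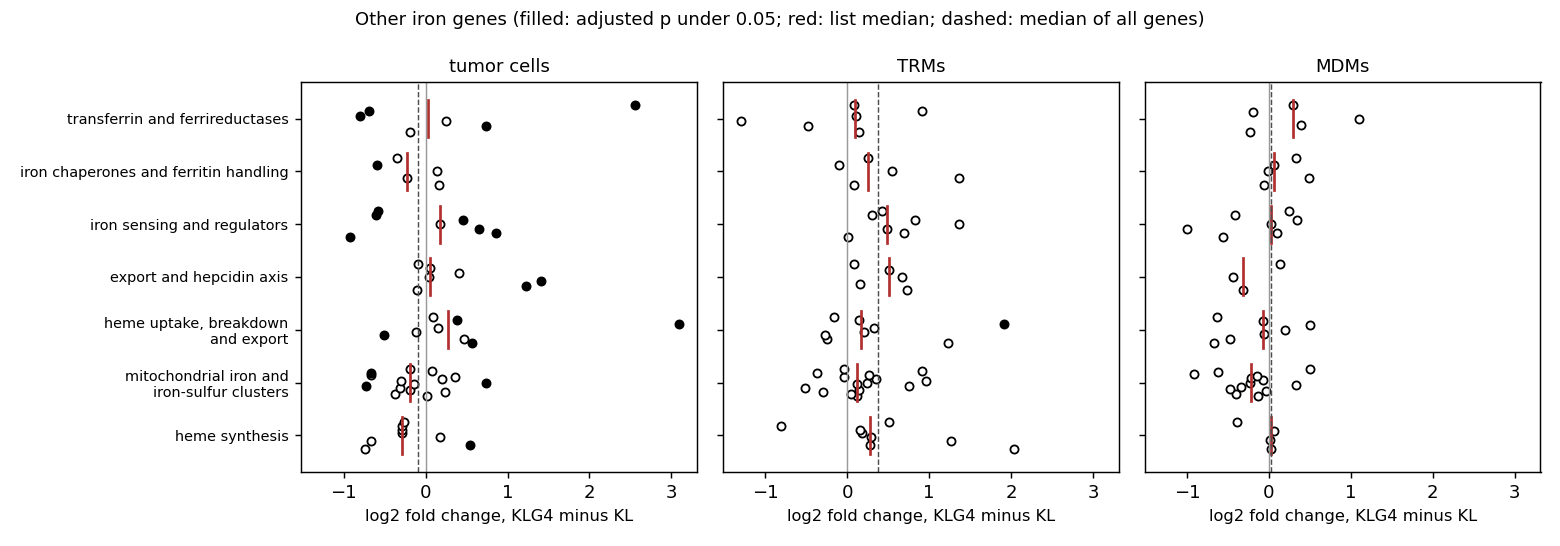
Log2 fold change (KLG4 minus KL) of each tested gene of the 7 lists in the 3 populations; filled points passed an adjusted p of 0.05, red lines are list medians and the dashed line is the median of all genes. In tumor cells 21 of 56 points are filled, in TRMs 1 of 54 (Lrp1) and in MDMs 0 of 44.

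In TRMs 1 of 54 tested genes of the lists was called (1.85%), against 1.8% of all genes. It was Lrp1, which rose from 8.11 and 11.4 RPKM (KL) to 36.9 and 36.0 RPKM (KLG4) (log2 fold change 1.91 ± 0.22 SE, adjusted p 0.0352 in limma). Its log2 fold change was 1.53 under median ratio scaling (limma adjusted p 0.0527) and 1.91 without the trend (limma adjusted p 0.0882), settings in which 30 and 12 of all 10990 genes were called. The AT2 markers summed to 172 and 185 RPKM (KL) against 38.1 and 71.96 RPKM (KLG4) in TRMs, the epithelial markers to 130 and 148 RPKM against 66.0 and 106 RPKM, and the neutrophil markers to 240 and 155 RPKM against 120 and 92.1 RPKM. The list for monocyte-derived macrophages stood at 556 and 495 RPKM against 707 and 874 RPKM. These lists thus moved with genotype as well, and their part in the TRM values was not tested. An unadjusted p under 0.05 in limma was found for 9 of 54, against 28.3% of all genes. Beside Lrp1 these were Fbxl5 (log2 fold change 1.37), Herc2 (1.36), a ligase that degrades Ncoa4, the exporter of porphyrins Abcg2 (1.23), the mitochondrial iron importer Slc25a28 (0.92), Hif1a (0.82), Hfe (0.73), Epas1 (0.49) and the heme synthesis enzyme Urod (-0.80). The median over the lists was 0.22, below the 0.38 of all genes.

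In MDMs 0 of 44 tested genes of the lists were called in limma or in limma-voom, as for all genes. An unadjusted p under 0.05 was found for 2 of 44, against 6.74% of all genes. Ltf, an iron-binding protein of neutrophil granules, was at 34.8 and 25.8 RPKM (KL) against 54.1 and 75.7 RPKM (KLG4), with a log2 fold change of 1.09. Epas1 was at 8.51 and 15.6 RPKM (KL) against 5.31 and 6.14 RPKM (KLG4), with a log2 fold change of -0.999. Without KL replicate 1, 11 of 44 genes of the lists passed, 3 of them higher, against 25.6% of all genes, 11.4% higher.

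The genes most like the 4 members with the widest ranges were sought among 5350 genes over the 12 libraries, by Pearson's r of log2(RPKM + 0.1). These values describe libraries that share 3 populations, so that any gene that differs between the populations in the same order has a high r. Slc11a1 was most like Cyp4f18 (r = 0.988), Trpm2 (0.988) and Tnfsf14 (0.986). Slc40a1 was most like Zcchc6 (0.983), Dgat2 (0.979) and Pts (0.978). Fth1 was most like Cd300lf (0.986), Fes (0.985) and Samhd1 (0.983). Tfrc was most like Actn1 (0.979), Ggps1 (0.972) and Cul1 (0.970).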

How the data were processed

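Tumor cells, TRMs and MDMs were sorted from KL and KLG4 lung tumors, and 12 libraries in 6 groups of 2 were used, grouped by sample title. Another 5 samples were not analysed here. According to the submitters' processing notes and the study's methods, paired-end reads were trimmed with Trim Galore 0.6.4, aligned to GRCm38 with HISAT2 2.0.5 and counted per gene with featureCounts 2.0.0, leaving out reads that matched several places. The libraries do not mark strand, so reads of overlapping genes cannot be told apart. The authors deposited RPKM values in 1 table per population; their own fold changes, test statistics and p-values in the same tables were not used. The study's methods name a test for counts, so RPKM was tested with limma instead.

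Each table was fitted alone in R 4.3.3 by limma 3.58.1, two-sided and with a trend, on log2(RPKM + 0.1) of genes that reached 1 RPKM in 2 or more of 4 libraries, with Benjamini-Hochberg adjustment over the table. A fold change on this scale understates the change of low genes. The fit was tested on simulated data. Whole reads were recovered from RPKM and gene length for at least 99.99% of values below 2000 reads (tolerance 0.05 reads), which gave 9140750 to 36617000 reads per library. Of the counts below 30, 16.6% to 31.2% were odd, so mates were mostly counted together, and counting error is larger than the reads imply. Floors cover counting error only. The study gives its tumor cell replicates as mice, but each of those libraries held both Xist and Eif2s3y. P-values in tumor cells may thus not measure the spread between single mice. For the macrophages no source used here gives the replicates as mice, and p-values there may measure technical spread.

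Named were all members, up to 20 genes of the pathway lists per population with an adjusted p under 0.05 (an unadjusted p where fewer than 5 passed) by largest change, Pgrmc1 being added after its value was seen, ferritin copies, and 3 like genes for each of 4 members. Members and lists were chosen with earlier results of these data known. Alternatives covered the pseudocount (1 and 0.01), filters, scaling, the trend, limma-voom, a replicate block and leaving out each library. Sequences and transcript structures are from GENCODE M21.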

Additional observations from a re-analysis of the deposited data

Results flagged for a closer look

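Among 36 members and named pathway genes, 8 differed in direction between populations in which they were tested, with the KLG4 pair wholly above the KL pair in 1 and wholly below it in another. These differences were not tested, and they are given as the log2 fold change in the first population minus that in the second. Over all genes the KLG4 pair lay wholly above in 32.5%, 53.7% and 25.4% in tumor cells, TRMs and MDMs. It lay wholly below in 42.2%, 8.95% and 19.1%. The share of all genes with opposite directions was not computed, and the pathway genes were named by their p-values, so the count does not set iron genes apart. Tfrc differed by -1.86 between tumor cells and TRMs and by -1.64 between tumor cells and MDMs. Ireb2 differed by -0.75 between tumor cells and MDMs. Ftl1 differed by 0.49 between tumor cells and MDMs and by 0.21 between TRMs and MDMs, where its sign in TRMs depended on the scaling.

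Of the pathway genes, Epas1 differed by 1.65 between tumor cells and MDMs and by 1.49 between TRMs and MDMs, where its size in MDMs depended on the KL library kept. Nfe2l2 differed by -0.997 between tumor cells and TRMs and by -0.81 between tumor cells and MDMs. Its size in TRMs depended on the scaling, with a log2 fold change of 0.42 as deposited, 0.15 under quantile scaling and 0.033 under median ratio scaling. Blvra differed by 0.82 and Hmox2 by -0.70 between tumor cells and TRMs. Between TRMs and MDMs, Hmox2 differed by 0.25 and Slc25a28 by 1.54. The sign of Hmox2 in TRMs also depended on the scaling, with a log2 fold change of 0.20 as deposited, -0.10 under quantile scaling and -0.19 under median ratio scaling. A further 3 genes, Cp, Steap4 and Abcg2, had opposite directions of this kind where at least 1 of the populations was below the filter, and no difference is given for them.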

How the results depend on the processing

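Of 327 log2 fold changes of members from alternatives, 288 kept direction and side of the threshold, and of 168 counts of called genes 131 stayed within 1.5 times. In tumor cells, quantile scaling called 7 members in place of 4, leaving out 1 library gave 1 to 6 members and 2 to 25 pathway genes in place of 21, and the low ends came without either KLG4 library. In TRMs, limma-voom called 2 members (Tfrc and Slc11a1) and 5 pathway genes in place of 0 and 1, against 18.2% of all genes. Pathway genes called in TRMs were 3 at a mean of at least 5 RPKM, 0 with median ratio scaling, 0 without the trend and 1 to 10 without 1 library, 10 without KL replicate 2. In MDMs, leaving out 1 library gave 0 to 2 members and 0 to 11 pathway genes, the high ends without KL replicate 1. Calls over all genes ranged from 1927 to 7372 in tumor cells, 12 to 2382 in TRMs and 0 to 2682 in MDMs.

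Reversals were confined to log2 fold changes that were not called. In TRMs, quantile scaling gave 0.80 for Fth1, -0.12 for Ftl1, -0.28 for Ncoa4 and -0.20 for Ireb2, and median ratio scaling -0.29 for Ftl1, -0.36 for Ncoa4 and -0.15 for Ireb2. Rescaling to reads outside mitochondrial genes gave -0.040 for Ftl1 and -0.11 for Ncoa4. Without 1 library the TRM values ranged from -0.20 to 0.64 for Ireb2, -0.031 to 0.092 for Ncoa4 and -0.15 to 0.027 for Fth1. In MDMs Fth1 was at -0.0091 with the mitochondrial rescaling, -0.0066 with median ratio scaling and -0.30 to 0.34 without 1 library, and Ncoa4 at -0.33 to 0.25. The causes were not tested.

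Deviations of replicate 1 from its group mean correlated between KL and KLG4 at 0.019, -0.060 and 0.054 in tumor cells, TRMs and MDMs. With 2 libraries per genotype, replicate 2 deviates by the same amounts with opposite sign. These correlations therefore do not decide whether replicate numbers pair the samples. With the replicate block 4, 0 and 0 members and 18, 1 and 0 pathway genes were called, and all genes called were 5388, 470 and 0. No call of a member changed under the block.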
